A study of Mus musculus with 8 samples.

Results

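The constitutive proteasome subunit genes are described here across 8 bulk RNA libraries of mouse gastric tumor epithelium. They were taken from the deposited count table by name, as every entry whose symbol starts with Psma, Psmb, Psmc or Psmd and ends in a number, without the inducible catalytic subunits Psmb8, Psmb9, Psmb10 and the thymus subunit Psmb11. This gave 35 genes of 27179 entries, of which 34 were expressed highly enough to be tested. The choice used names only and no measured value.

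Cells carrying the epithelial surface protein EpCAM were sorted from antral gastric tumors of 4 Gp130FF; Yap1KO mice and 4 Gp130FF; Yap1WT mice, with 1 library per mouse. The comparison asks what loss of Yap1, the transcriptional effector of the Hippo pathway, changes in tumor epithelium. All 8 mice were homozygous for gp130FF, a mutant receptor allele that keeps Stat3 signalling active and gives rise to gastric adenomas. The labels write the genotypes as gp130FF;Yap1 flox/flox (called Yap1KO here) and gp130FF; Yap1WT, with an age of 18 weeks and a time of 3 days after tamoxifen for every library. Per the study's methods, the Cre recombinase was Tff1:CreERT2, which is active in cells that express the surface mucous cell gene Tff1, and the Yap1WT mice carried the same alleles and received vehicle in place of tamoxifen. The labels and the methods therefore differ on whether the Yap1WT mice received tamoxifen, and exposure to tamoxifen cannot be told apart from loss of Yap1 if the methods hold.

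Library totals ran from 18229945 to 74278015 counts in Yap1KO and from 27607755 to 77483047 in Yap1WT. Yap1 itself stood at 21.3, 27.6, 29.7 and 24.2 CPM (counts scaled to library size, with TMM factors) in Yap1KO replicates 1 to 4, against 77.1, 64.2, 78.0 and 72.5 in Yap1WT, a log2 fold change of -1.51 ± 0.13 (standard error; edgeR adjusted p = 0.00021). Summed CPM of 6 epithelial markers was 8593 to 10940 in Yap1KO and 9336 to 11250 in Yap1WT, but the members went both ways. Of the 6, 1 was called higher in Yap1KO, beside 3.53% of all genes tested. An unadjusted edgeR p under 0.05 was found for 4 of 6, beside 20.4% of all genes tested. Epcam, the sort marker, averaged 1653 CPM in Yap1KO and 976.6 CPM in Yap1WT without overlap (log2 fold change 0.76, edgeR adjusted p = 0.0019), and Krt19, a keratin, 2568 CPM in Yap1KO and 3425 CPM in Yap1WT without overlap (-0.42, edgeR adjusted p = 0.10). In bulk libraries fewer cells of a type and less RNA per cell cannot be told apart.

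The proteasome is the large protease that degrades proteins tagged with ubiquitin. Its barrel-shaped core particle is built of outer rings of alpha subunits, which gate the entrance, and inner rings of beta subunits, of which Psmb5, Psmb6 and Psmb7 carry the chymotrypsin-like, caspase-like and trypsin-like active sites. The regulatory particle caps the barrel: its base holds a ring of ATPases (the Psmc genes) that unfold substrates, and its lid holds Psmd14, the enzyme that cuts ubiquitin off. Interferon-gamma induces the alternative catalytic subunits Psmb8, Psmb9 and Psmb10, which take the places of Psmb5, Psmb6 and Psmb7 in newly built immunoproteasomes. Coordinated transcription of the constitutive genes depends on the transcription factor Nfe2l1 (NRF1), which binds antioxidant response elements.

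Promoter windows are shown for 2 of the 3 pairs of a constitutive catalytic gene, for which no difference was detected, and the inducible gene that takes its place, which was higher in Yap1KO: Psmb5 with Psmb8 and Psmb6 with Psmb9. The pair of Psmb7 with Psmb10 is not shown. Each window runs from 250 bases before to 50 after the start of transcription in RefSeq, GRCm38.p6, and lies at chr14:54617946-54618245 (minus strand) for Psmb5, chr17:34197945-34198244 (plus strand) for Psmb8, chr11:70525107-70525406 (plus strand) for Psmb6 and chr17:34187281-34187580 (minus strand) for Psmb9. Capitals mark the antioxidant response element core TGACNNNGC in Psmb5 and Psmb6 and a CCAAT box, read on the opposite strand, in Psmb9. The Psmb8 window held none of the 3 motifs searched and so has no capitals. In the GENCODE M21 annotation Psmb8 starts at chr17:34197721 (plus strand) and Psmb9 at chr17:34187764 (minus strand). Both starts lie before the windows shown, and the sequence before those starts was not searched.
Psmb5: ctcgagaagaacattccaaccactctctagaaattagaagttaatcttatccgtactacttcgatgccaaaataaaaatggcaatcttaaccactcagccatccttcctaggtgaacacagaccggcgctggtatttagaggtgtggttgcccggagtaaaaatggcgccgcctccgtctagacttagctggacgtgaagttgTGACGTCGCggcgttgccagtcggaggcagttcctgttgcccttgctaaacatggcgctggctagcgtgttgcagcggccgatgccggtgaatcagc
Psmb8: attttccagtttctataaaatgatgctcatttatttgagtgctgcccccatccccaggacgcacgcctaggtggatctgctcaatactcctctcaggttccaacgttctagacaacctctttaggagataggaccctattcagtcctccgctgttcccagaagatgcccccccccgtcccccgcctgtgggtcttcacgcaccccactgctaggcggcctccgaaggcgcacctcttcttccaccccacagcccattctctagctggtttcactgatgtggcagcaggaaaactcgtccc
Psmb6: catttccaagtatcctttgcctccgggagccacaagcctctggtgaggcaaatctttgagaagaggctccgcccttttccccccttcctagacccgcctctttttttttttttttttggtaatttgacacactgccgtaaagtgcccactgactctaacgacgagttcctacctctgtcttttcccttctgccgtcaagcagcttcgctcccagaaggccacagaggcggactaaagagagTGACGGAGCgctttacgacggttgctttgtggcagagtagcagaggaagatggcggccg
Psmb9: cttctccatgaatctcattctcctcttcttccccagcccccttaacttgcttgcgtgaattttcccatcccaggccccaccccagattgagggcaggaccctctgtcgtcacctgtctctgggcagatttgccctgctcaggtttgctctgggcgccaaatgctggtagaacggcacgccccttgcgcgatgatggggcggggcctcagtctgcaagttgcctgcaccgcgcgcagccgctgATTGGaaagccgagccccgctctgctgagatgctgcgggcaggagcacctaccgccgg

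Over both strands, windows were searched for TGACNNNGC, for CCAAT and for the core of the interferon-stimulated response element. The promoter table matched 28 of the 35 genes, with 30 windows. TGACNNNGC stood in 5 of the 30 windows (16.7%: Psmb5, Psmb6, Psmc6, Psmd9 and Psmd12), against 12.4% of all 32851 windows. CCAAT stood in 11 of the 30 (36.7%), against 37.4% of all windows. The interferon-stimulated response element core stood in 3 of the 30 (Psmb3, Psmd4 and Psmd9), against 3.44% of all windows. The match in Psmb5 began 47 bases before the start and that in Psmb6 began 9 bases before it. These are matches of letters only, and binding was not measured.

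Levels per length are given as RPKM (reads divided by gene length and depth), from the deposited log2 values. The core particle genes had a median of 127 RPKM (11.7 to 212) over 14 genes, and a median of 76.3 RPKM (36.7 to 115.5) was found over the 17 genes of the regulatory particle, a range that lies within that of the core. Psmb1, a structural beta subunit, had the highest level at 212 RPKM over all 8 libraries. The base assembly chaperones Psmd5, Psmd9 and Psmd10, which help to build the ATPase ring and are not part of the finished particle, lay at 11.3 to 23.2 RPKM.

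**Figure D1:**
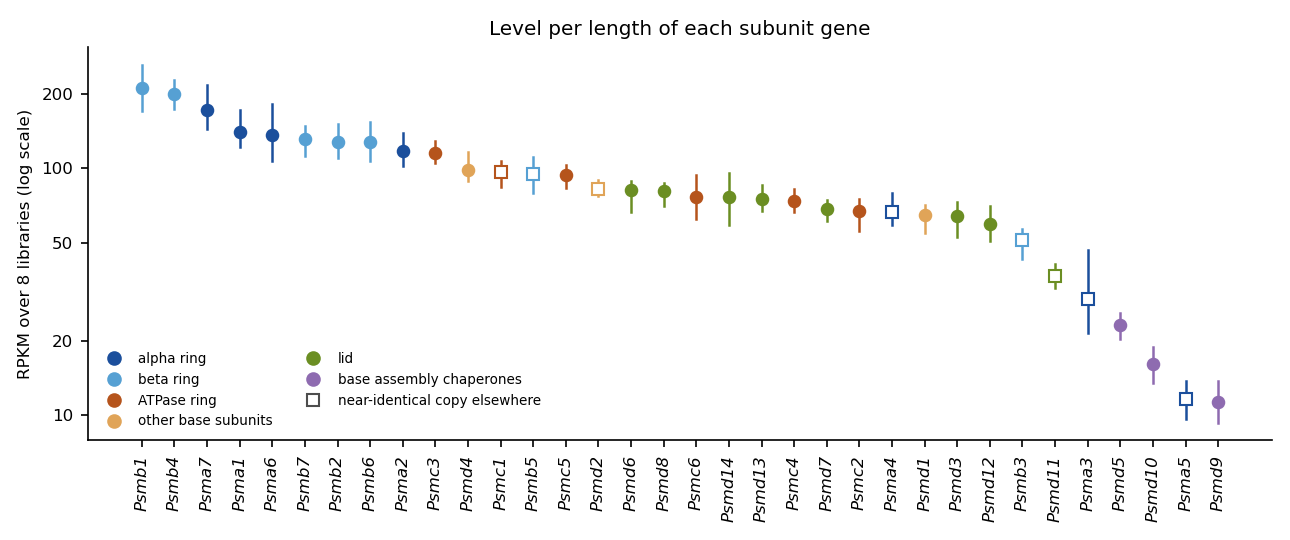
Mean RPKM (log axis) of the 34 tested genes over 8 libraries, with a line from the lowest to the highest library, coloured by sub-complex and in falling order. Open squares mark the 8 genes with a near-identical sequence elsewhere in the transcriptome. Psmb1 stands highest at 212 RPKM and Psmd9 lowest at 11.3 RPKM.

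The lowest structural genes shared a feature of their sequence. Psma5 (11.7 RPKM), Psma3 (29.5 RPKM), Psmd11 (36.7 RPKM) and Psmb3 (51.2 RPKM) each had between 2 and 4 other transcripts of the annotation, mostly of pseudogenes, that matched them over at least 200 bases at 95% identity or more. Such copies were found for 8 of the 35 genes, and the others were not among the lowest. These were Psma4 (66.3 RPKM), Psmb5 (95.1 RPKM) and Psmd2 (82.55 RPKM), with 1 copy each, and Psmc1 (96.9 RPKM), with 2 copies. Reads of these 8 could be split between copies, so their levels are uncertain. The part of the copies in the low levels was not tested.

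No difference between Yap1KO and Yap1WT was detected for any of the 34 tested genes. By edgeR's quasi-likelihood test with Benjamini-Hochberg adjustment 0 were higher and 0 were lower, where 3.53% of the 13495 genes tested were higher, 2.34% lower and 5.87% changed in either direction in Yap1KO. At an unadjusted p under 0.05 there were also 0 of 34, where 20.4% of all genes passed, and DESeq2, limma-voom and limma-trend likewise called 0. None of the 34 had groups without overlap, whereas 13.2% of all genes tested did. The lowest adjusted p was 0.43, for Psma4.

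Fold changes were small in either direction. They ran from -0.28 for Psma3 to 0.15 for Psma4 on the log2 scale, 16 above and 18 below 0, with a median of -0.033 beside -0.0093 over all genes tested. The median size of change, sign aside, was 0.075 log2 units for the 34 genes and 0.205 for all genes tested. The spread within groups was smaller too, with a median SD of 0.142 log2 units for these genes and 0.242 for all genes. By mean CPM the 34 genes stood above 36.6% (Psma5) to 96.1% (Psmd2) of the genes tested. Most stood at or above the 79.4% of Psma4. The comparison with all genes was not matched for level, and the part of level in these smaller values was not tested. For 33 of the 34 genes the 95% interval of the difference stayed within 1.5-fold in either direction. The exception was Psma3, whose interval ran from -0.76 to 0.19.

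**Figure D2:**
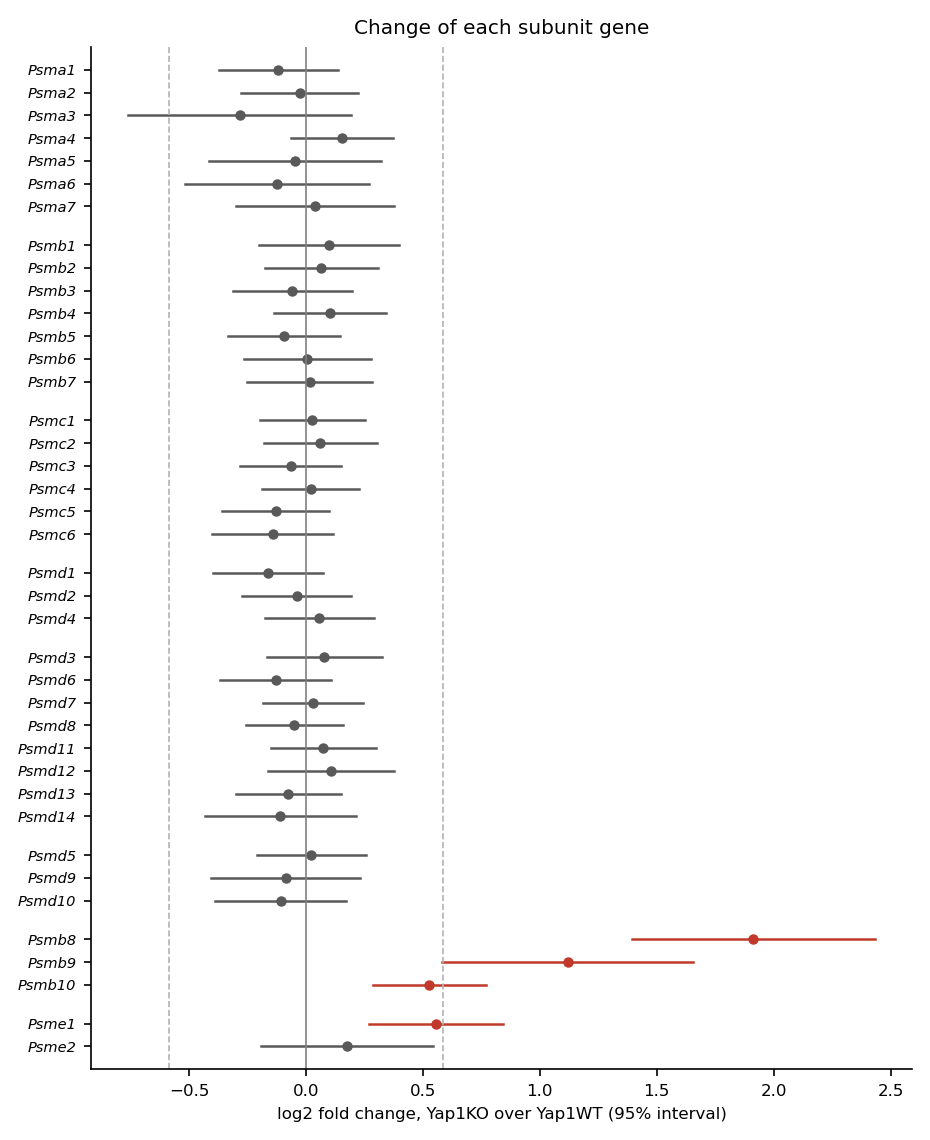
Log2 fold change of Yap1KO over Yap1WT (dot) with its 95% interval (line) for the 34 constitutive genes by sub-complex, then the inducible subunits and the activator genes Psme1 and Psme2. Red marks an edgeR adjusted p under 0.05, and dashed lines mark 1.5-fold. The 34 constitutive genes lie between -0.28 and 0.15, while Psmb8 lies at 1.91.

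The alpha ring, which gates the core, had a median log2 fold change of -0.048 over its 7 tested genes, 2 above and 5 below 0. Psma3 had 30.2, 46.9, 38.9 and 34.3 CPM in Yap1KO, against 32.8, 66.3, 44.2 and 39.6 CPM in Yap1WT. The groups overlapped, and replicate 2 was highest in each. Its difference of -0.28 ± 0.21 (adjusted p = 0.51) shrank to -0.048 without Yap1WT replicate 2, the highest library. Psma4 had 67.5, 83.3, 74.9 and 75.9 CPM in Yap1KO, against 62.8, 74.7, 65.1 and 68.4 CPM in Yap1WT, a difference of 0.15 ± 0.10 (adjusted p = 0.43). Both genes have near-identical copies, 4 for Psma3 and 1 for Psma4.

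The beta ring had a median log2 fold change of 0.015 over 7 genes, 5 above and 2 below 0, and its 3 catalytic genes showed no detected difference. Psmb5 (chr14:54614119-54618022, GRCm38, 3 exons), the chymotrypsin-like subunit, had 74.5, 85.5, 86.1 and 69.6 CPM in Yap1KO, against 75.7, 94.8, 85.9 and 80.9 CPM in Yap1WT. The 2 groups overlapped, and the ratio of Yap1KO to Yap1WT was 0.937 with a 95% interval of 0.793 to 1.11 (log2 difference -0.094 ± 0.11, adjusted p = 0.68). Psmb6 (chr11:70525367-70527858, 4 exons), the caspase-like subunit, had 110.1, 153.0, 124.6 and 132.2 CPM in Yap1KO, against 115.7, 148.3, 127.3 and 126.2 CPM in Yap1WT. Its ratio was 1.004 (0.833 to 1.21, adjusted p = 0.99). Psmb7 (chr2:38588036-38644087, 8 exons), the trypsin-like subunit, had 112.9, 129.3, 138.2 and 124.7 CPM in Yap1KO, against 105.1, 136.6, 143.4 and 114.6 CPM in Yap1WT, a ratio of 1.01 (0.841 to 1.21, adjusted p = 0.96). For each of these 3 the whole interval lay within 1.5-fold. Exons of Nek6 on the opposite strand cover 11.8% of the merged GENCODE M21 exon length of Psmb7. That length can include bases outside the RefSeq exons over which reads were counted. Where counted exons overlap, reads of Nek6 and Psmb7 cannot be separated in libraries that do not mark strand. The same limit holds for Psmd9 (Gm26745, 25.5%, the largest overlap of these genes), Psmd13 (Sirt3, 10.1%) and Psmc3 (Slc39a13, 8.25%), and to a smaller extent for others. Psmb4, a structural subunit and the ring's highest difference, stood at 192.4 ± 19.0 CPM in Yap1KO and 179.1 ± 16.8 CPM in Yap1WT (SD, n = 4 each; edgeR adjusted p = 0.66).

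**Figure D3:**
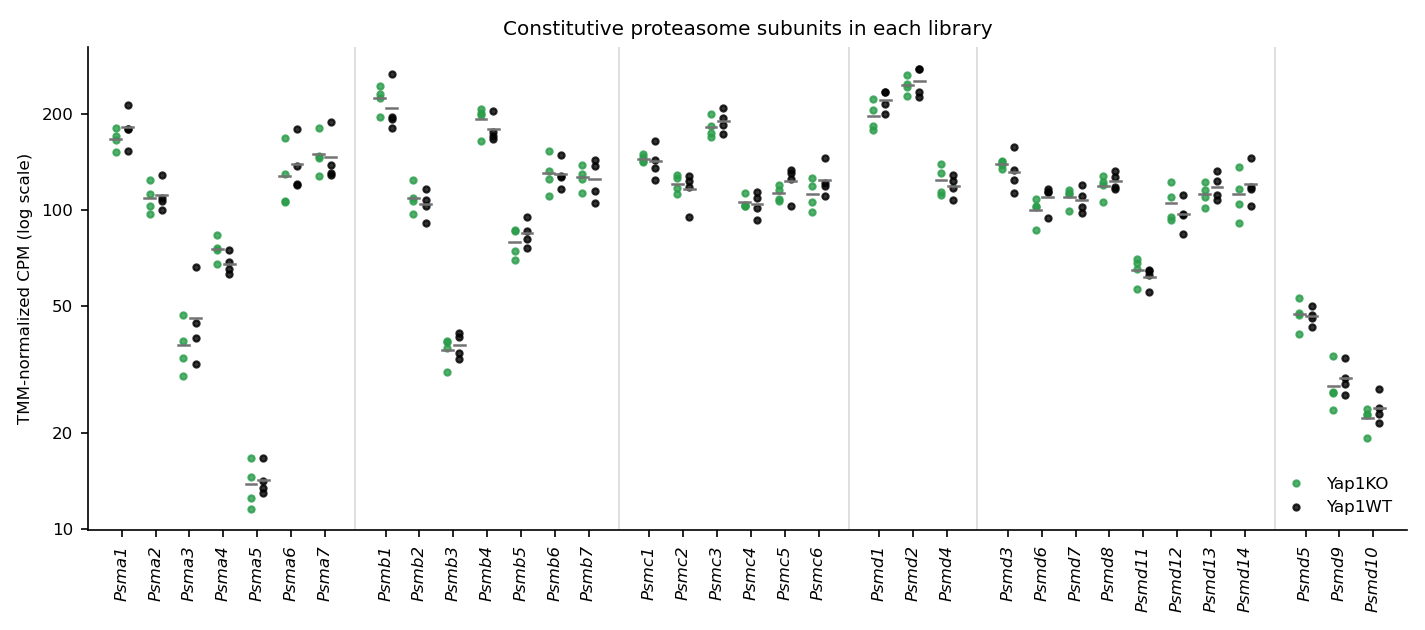
TMM-normalized CPM (log axis) of each of the 34 tested genes, with 1 dot per library, Yap1KO in green and Yap1WT in black, and a grey bar at the group mean. Grey vertical lines separate the alpha ring, beta ring, ATPase ring, other base subunits, lid and base assembly chaperones. The groups overlap for each of the 34 genes, for example Psmb5 at 69.6 to 86.1 in Yap1KO and 75.7 to 94.8 in Yap1WT.

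The ATPase ring, whose 6 subunits unfold substrates and thread them into the core, had a median log2 fold change of -0.022, 3 above and 3 below 0. Its extremes were Psmc2, at 120.7 ± 7.7 CPM in Yap1KO and 115.8 ± 14.2 CPM in Yap1WT (SD, n = 4 each; edgeR log2 difference 0.061, adjusted p = 0.81), and Psmc6. Psmc6 had 105.9, 125.8, 118.4 and 98.2 CPM in Yap1KO, against 110.1, 144.7, 118.4 and 121.3 CPM in Yap1WT (-0.14 ± 0.12, adjusted p = 0.55). The 2 groups overlapped for each of the 6 genes.

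The other base subunits are Psmd1 and Psmd2, large scaffold proteins, and Psmd4, a ubiquitin receptor. Psmd1 had 178.1, 182.4, 221.6 and 206.0 CPM in Yap1KO, against 199.1, 214.4, 234.3 and 233.4 CPM in Yap1WT. Of this sub-complex it had the lowest difference, at -0.16 ± 0.11 (adjusted p = 0.44), and Psmd4 the highest, at 0.057 ± 0.10 (adjusted p = 0.82).

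In the lid the median over 8 genes was -0.011, 4 above and 4 below 0. Psmd14, the deubiquitinase, had 103.9, 136.0, 116.0 and 90.9 CPM in Yap1KO, against 102.9, 145.5, 115.9 and 117.8 CPM in Yap1WT. The ratio was 0.927 with a 95% interval of 0.742 to 1.16 (adjusted p = 0.74). Psmd12 stood at 104.7 ± 13.8 CPM in Yap1KO and 97.2 ± 11.1 CPM in Yap1WT (SD, n = 4 each; edgeR log2 difference 0.11, adjusted p = 0.68), and Psmd6 at 99.8 ± 9.3 CPM in Yap1KO and 109.2 ± 10.2 CPM in Yap1WT (-0.13, adjusted p = 0.55). These were the lid's highest and lowest differences. The base assembly chaperones ranged from -0.11 for Psmd10 (adjusted p = 0.69), also known as gankyrin, to 0.023 for Psmd5 (adjusted p = 0.94).

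The 34 genes summed to 3544, 4131, 3955 and 3880 CPM in Yap1KO, against 3518, 4294, 3974 and 3940 CPM in Yap1WT. The means were 3878 ± 246 CPM in Yap1KO and 3932 ± 318.5 CPM in Yap1WT (SD, n = 4 each), a ratio of 0.986. The core particle averaged 1576 ± 163 CPM in Yap1KO and 1572 ± 209 CPM in Yap1WT. The regulatory particle averaged 2204 ± 84.6 CPM in Yap1KO and 2259 ± 154 CPM in Yap1WT. On the RPKM scale the ratio of core to regulatory genes was 1.25 ± 0.08 in Yap1KO and 1.21 ± 0.12 in Yap1WT, so the balance of the particles differed by less than the spread between mice.

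The libraries of a group differed among themselves in a pattern common to both groups. Of the 14 core genes, 10 in Yap1KO and 12 in Yap1WT were highest in replicate 2. The median core gene in replicate 2 stood 0.17 log2 units above its group mean in Yap1KO and 0.21 above it in Yap1WT, and in replicate 1 it stood at -0.17 in Yap1KO and -0.15 in Yap1WT. The regulatory genes stood at 0.043 in replicate 2 of either group, and in replicate 1 at -0.089 in Yap1KO and -0.15 in Yap1WT, where they were as low as the core genes. In the same replicate 2 libraries the 983 tested genes with under 1500 bases of exon stood at 0.22 in Yap1KO and 0.19 in Yap1WT, and the 9295 genes with over 3000 bases at -0.040 in Yap1KO and -0.018 in Yap1WT. The median merged exon length was 2335 bases for the core genes and 2820 for the regulatory genes. All lengths here merge the exons of every GENCODE M21 transcript of a gene and can exceed the length over which reads were counted. Psmb1 had 4595 bases by this measure, yet 223.2 CPM and 222.0 RPKM on average in Yap1KO. The length behind its RPKM was therefore much shorter. Counted lengths of core and regulatory genes were not compared. The part of transcript length in the core pattern was not tested.

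**Figure D4:**
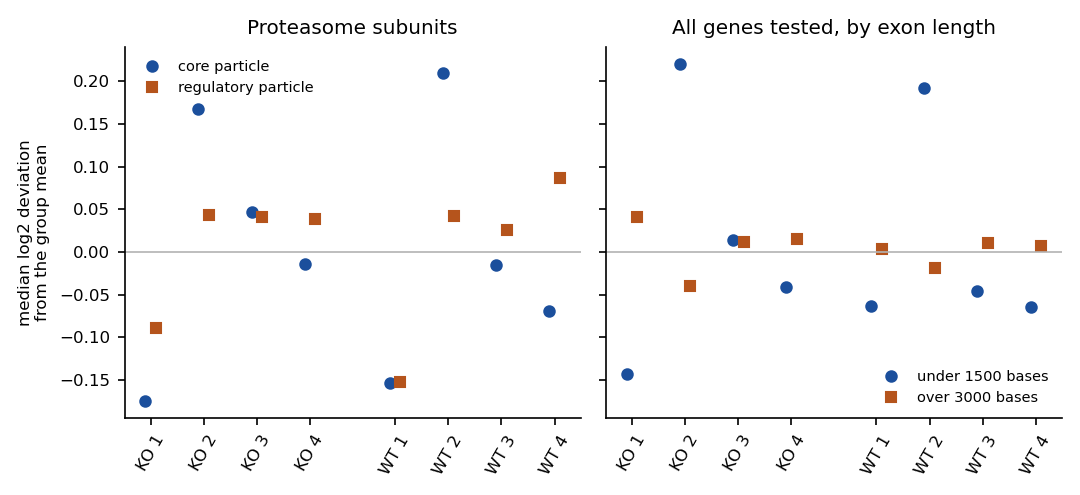
Median log2 deviation of each library from its group mean, for core and regulatory particle genes (left) and for all tested genes under 1500 or over 3000 bases of exon (right), Yap1KO libraries left of Yap1WT libraries. The core genes stand at 0.17 and 0.21 in Yap1KO and Yap1WT replicate 2, where genes under 1500 bases stand at 0.22 and 0.19.

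The inducible catalytic subunits Psmb8, Psmb9 and Psmb10, the 3 of this list that passed the filter, were higher in Yap1KO. Over all genes tested 3.53% were called higher. Psmb8 had 24.5, 15.97, 27.6 and 16.3 CPM in Yap1KO, against 5.09, 6.24, 4.44 and 6.73 CPM in Yap1WT, without overlap (log2 fold change 1.91 ± 0.23, adjusted p = 0.0013). Psmb9 had 13.0, 9.03, 18.3 and 18.8 CPM in Yap1KO, against 7.45, 7.29, 6.36 and 6.12 CPM in Yap1WT (1.12 ± 0.24, adjusted p = 0.025). Psmb10 had 48.4, 47.8, 52.2 and 50.9 CPM in Yap1KO, against 35.8, 37.7, 28.6 and 36.2 CPM in Yap1WT (0.53 ± 0.11, adjusted p = 0.020). Opposite-strand exons cover 14.7% of the merged GENCODE exon length of Psmb8 (Gm20496) and 5.79% of that of Psmb9 (Tap1). Where counted exons overlap, their reads cannot be separated here. Psmb8 kept its call when any single library was left out. Psmb9 lost it without Yap1KO replicate 3 or 4 or any of the Yap1WT libraries (adjusted p 0.051 to 0.083), and Psmb10 without Yap1KO replicate 4 or Yap1WT replicate 3 (adjusted p = 0.055 for each).

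Whether an inducible gene changed relative to its constitutive partner was tested on the ratio of their RPKM in each library, with an exact two-sided permutation test whose smallest possible p is 0.0286 and adjustment over the 3 pairs. Psmb8 stood at 24.0, 12.4, 22.1 and 16.9% of Psmb5 in Yap1KO, against 4.77, 4.65, 4.59 and 6.26% in Yap1WT. That ratio was 3.64-fold higher in Yap1KO (exact permutation p = 0.0286, adjusted 0.0429), higher in 4 of 4 libraries than in any Yap1WT library. Psmb10 stood at 32.7, 28.5, 28.4 and 31.6% of Psmb7 in Yap1KO, against 25.9, 20.8, 15.6 and 24.3% in Yap1WT, 1.42-fold higher and again without overlap (exact permutation p = 0.0286, adjusted 0.0429). Psmb9 stood at 15.5, 6.88, 18.0 and 18.7% of Psmb6 in Yap1KO, against 8.09, 6.27, 7.43 and 6.57% in Yap1WT. Replicate 2 of Yap1KO fell among the Yap1WT libraries, and the 1.95-fold difference did not pass (exact permutation p = 0.0857, adjusted 0.0857). Together the 3 inducible genes made up 17.7 ± 2.7% of the RPKM of the 6 catalytic genes in Yap1KO and 10.5 ± 1.3% in Yap1WT (SD, n = 4 each), so the constitutive genes remained the larger share in every library.

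**Figure D5:**
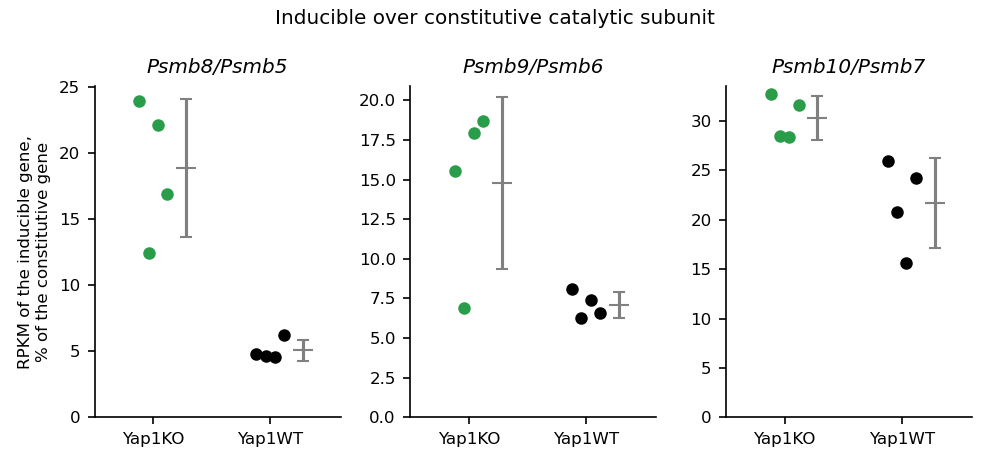
RPKM of each inducible catalytic gene as a percent of the constitutive gene whose place it takes, with 1 dot per library, Yap1KO (green) left of Yap1WT (black), and the mean ± SD beside each group in grey. Psmb8/Psmb5 and Psmb10/Psmb7 do not overlap between the groups, and for Psmb9/Psmb6 the Yap1KO replicate 2 library at 6.88% lies among the Yap1WT libraries.

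The mouse numbers of the labels fall in a first run (replicates 1 and 2) and a second run (replicates 3 and 4), and the labels do not say whether these mark a batch. The log2 difference of Psmb8 over Psmb5 was 1.87 within the first run and 1.85 within the second. For Psmb9 over Psmb6 it was 0.54 and 1.39, and for Psmb10 over Psmb7 it was 0.39 and 0.62. The median of the 34 constitutive genes was -0.041 and -0.022, and 0 of them were called in either. With 2 libraries a group the edgeR calls of Psmb8 (adjusted p = 0.086 in the first run and 0.056 in the second) and Psmb10 (0.43 and 0.14) were lost in each run, and that of Psmb9 in the first (0.55).

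Markers of other cell types were summed in the same libraries. Summed CPM of 6 endothelial markers was 408.5 to 837.9 in Yap1KO and 136.6 to 480.5 in Yap1WT, with 6 of 6 log2 fold changes above 0, 5 at an unadjusted p under 0.05 (20.4% of all genes tested) and 0 of 6 called by edgeR. That of 6 fibroblast markers was 306 to 1038 in Yap1KO and 81.5 to 675 in Yap1WT, with 0 of 6 called or at an unadjusted p under 0.05. Leukocyte markers were low, at 3.06 to 9.31 CPM in Yap1KO and 7.77 to 13.6 CPM in Yap1WT for 6 genes, of which none was at 0 in every library. Of the 2 that could be tested, both were below 0, 0 were called and Ptprc, the pan-leukocyte marker, had groups without overlap (log2 fold change -1.17, unadjusted p = 0.020, edgeR adjusted p = 0.15). Surface mucous cell markers summed to 20760 to 36700 CPM in Yap1KO and 29270 to 60600 CPM in Yap1WT. Of these, 6 of 6 log2 fold changes were below 0 and 5 had an unadjusted p under 0.05. Among the 6, 2 were called lower, where 2.34% of all genes tested were lower. The 2 were Capn8 and Sult1c2, which the study had itself reported as Yap1-dependent genes from these same libraries. Their calls are therefore no independent support for fewer surface mucous cells. For Sult1c2 the study also reports a lower transcript level by qRT-PCR in separate tumor organoids with Yap1 knocked down. Gkn1, Gkn2, Tff1 and Muc5ac were not called (edgeR adjusted p 0.11 to 0.68). The part of these cell types in the difference of the inducible genes was not tested.

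Psma8, the alpha subunit that replaces Psma7 in the proteasome of male germ cells, was the gene that did not pass the filter. It had 36, 13, 14 and 10 reads in Yap1KO, against 4, 1, 0 and 1 reads in Yap1WT. This is 0.666, 0.410, 0.181 and 0.546 CPM in Yap1KO, against 0.0516, 0.0233, 0 and 0.0358 CPM in Yap1WT, and the groups did not overlap. The 73 reads of Yap1KO against the 6 of Yap1WT give a ratio of 14.6 after scaling to library size, with an exact 95% interval of 6.38 to 41.0 that covers counting error only. With the filter removed, edgeR gave a log2 fold change of 3.91 and an adjusted p = 0.12, so it was not called. Of the germ cell markers Prm1, Prm2 and Tnp1, Prm1 had 5 reads in Yap1KO replicate 3 and none elsewhere, and the others had 0 reads in all libraries. All 8 libraries lay below 1 CPM.

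Few other genes of the pathway were called. Of the activators and inhibitor of the core, 1 of 5 was called higher, beside 3.53% of all genes tested. This was Psme1, which with Psme2 forms the interferon-induced activator cap. Psme1 had 86.1, 93.5, 86.4 and 74.7 CPM in Yap1KO, against 63.6, 66.9, 54.8 and 46.1 CPM in Yap1WT (0.56 ± 0.13, adjusted p = 0.033). Its call was lost without Yap1KO replicate 1, 2 or 3 or Yap1WT replicate 1, 3 or 4 (adjusted p 0.052 to 0.10), and within each run of mouse numbers (0.31 in the first and 0.11 in the second). Psme2 had 16.2 ± 1.5 CPM in Yap1KO and 14.4 ± 2.7 CPM in Yap1WT (SD, n = 4 each; edgeR adjusted p = 0.62), and it has a near-identical copy. No gene was called among 5 tested assembly chaperones of the core (the base chaperone Paaf1 of the same list was not analysed here), 6 further subunits and partners of the regulatory particle, 6 ubiquitin shuttles, 4 ubiquitin genes, or 7 genes of the ubiquitin-activating enzymes and the Vcp unfoldase. At an unadjusted p under 0.05 these lists held 0, 0, 0, 1 and 2 genes in that order, beside 20.4% of all genes tested.

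Among 8 genes that control proteasome transcription, 1 was called higher, beside 3.53% of all genes tested. Nfe2l3 (NRF3), a relative of Nfe2l1, had 113.2, 93.3, 72.7 and 103.5 CPM in Yap1KO, against 48.8, 48.0, 33.3 and 42.1 CPM in Yap1WT, without overlap (1.15 ± 0.16, adjusted p = 0.0026), and it kept its call when any single library was left out but not within the first (adjusted p = 0.078) or second (0.053) run of mouse numbers. Nfe2l1 itself had 228.1, 176.7, 171.1 and 224.4 CPM in Yap1KO, against 184.8, 168.5, 203.2 and 202.8 CPM in Yap1WT. The groups overlapped (0.075 ± 0.12, adjusted p = 0.79).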

How the data were processed

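EpCAM+ cells of antral gastric tumors from 8 mice were profiled by RNA-seq (TruSeq kit, which does not mark strand). The authors aligned the reads with Subread and deposited raw counts per RefSeq gene from featureCounts (mm10). The authors also deposited log2 values, made with voom and quantile normalization. These are log2 RPKM although their header names FPKM, and how they were scaled to length is not given in the sources used here. A further 6 count columns match no sample and were not used.

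Of 27179 entries, 1277 without a name (0.552% to 0.789% of a library's counts) and 762 pseudogenes absent from the log2 values were left out. Genes above 0.5 CPM in at least 6 libraries were tested in R 4.3.3 with edgeR 4.0.16 (quasi-likelihood test, TMM factors, Benjamini-Hochberg adjustment, threshold 0.05); the scripts were tested on simulated data. Standard errors were derived from each gene's F statistic. The common coefficient of variation was 0.283. The alternatives were DESeq2 1.42.0, limma 3.58.1 (voom, and trend on the log2 values), other scaling and filters, blocks and leaving out each library. Ratios were tested with SciPy 1.17.1. Copies came from GENCODE M21 transcripts with BLAST 2.17.0, and exon lengths and overlaps from the merged GENCODE M21 exons of each gene.

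The named genes were the catalytic and inducible subunits, Psme1, Psme2, Psmd14, Nfe2l1, the highest and lowest difference of each sub-complex, any gene that failed the filter and any called gene of the pathway lists. The genes and lists were chosen with earlier results of these data known. Mice are separate animals, 1 per library.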

Additional observations from a re-analysis of the deposited data

Results flagged for a closer look

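In groups of 4 libraries, 98 were examined for a library whose gap to its nearest neighbour exceeded Dixon's 95% critical share of the group's range, and 6 were found, where chance gives about 1 in 20. Of these, 3 were constitutive genes: Psma7 at 188.1 CPM in Yap1WT replicate 2, Psmc4 at 113.1 CPM in Yap1KO replicate 2 and Psmd6 at 94.04 CPM in Yap1WT replicate 1. The summed CPM of the regulatory particle was 2031 in Yap1WT replicate 1, below the other Yap1WT libraries. The log2 ratio of Psmb8 to Psmb5 was -3.998 in Yap1WT replicate 4, above the other Yap1WT libraries and still below every Yap1KO library. The inducible genes made up 13.7% of catalytic RPKM in Yap1KO replicate 2, below the other Yap1KO libraries.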

How the results depend on the processing

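The count of constitutive genes called stayed at 0 in each direction under all 21 alternatives, and their median log2 fold change ran from -0.075 to 0.024, both reached by leaving out a library (Yap1WT replicate 1 and Yap1WT replicate 2). The counts over all genes depended on the model. DESeq2 called 845 higher and 569 lower, against 476 and 316 with edgeR. With a replicate block edgeR called 755 and 552, and within the first run of mouse numbers 14 and 14 and within the second 189 and 112, an alternative chosen after seeing the data. Leaving out a library gave 241 to 481 higher and 156 to 292 lower, the lowest without Yap1WT replicate 3 (241 and 156). Without Yap1KO replicate 1 they were 287 and 205, without Yap1KO replicate 4 they were 270 and 195, and without Yap1WT replicate 1 there were 317 higher. Fewer libraries entered these fits.

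Same-numbered libraries correlated at 0.036, 0.347, 0.052 and 0.149 in their deviations from the group means. Each was above 0, and libraries of different numbers correlated at -0.24 to 0.20. Not every same-numbered pair passed 0.1, and the numbers were not taken to pair the mice. Whether they mark a shared batch was not tested. Not every library correlated best with its own number, although the 0.347 between the replicate 2 libraries was the highest of the 16 correlations. Under the replicate block 1 of the 34 genes, Psma3, passed an unadjusted p under 0.05 (adjusted p = 0.15), and no constitutive gene was called.

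Among the 22 genes followed under the alternatives, the sign turned for some that were near 0 and not called. Leaving out a library gave -0.082 to 0.078 for Psmb6, -0.059 to 0.092 for Psmb7, -0.0042 to 0.10 for Psmd4, -0.039 to 0.084 for Psmd5 and -0.023 to 0.11 for Psmc2. Within the first run Psmb4 was -0.047, Psmb6 -0.0085, Psmb7 -0.00025 and Psmd5 -0.033, and within the second Nfe2l1 was -0.031. The cause was not tested. The log2 ratio of the summed level, -0.020, was 0.013 on the RPKM scale, and it was 0.021 without Yap1KO replicate 1 and 0.025 without Yap1WT replicate 2. The ratio of Psmb9 to Psmb6 ranged from 0.82 to 1.30 log2 units over the libraries left out, and was 1.06 from raw counts (exact permutation p = 0.0571 after adjustment). With 3 libraries against 4 that test cannot reach the threshold.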

Other observations

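Outside the rule for named genes, and chosen after its values were seen, the polyubiquitin gene Ubb stood at 523.4, 586.1, 447.6 and 523.2 CPM in Yap1KO, against 428.6, 375.1, 353.1 and 388.9 CPM in Yap1WT. The groups did not overlap, and the log2 difference of 0.43 ± 0.11 missed the threshold narrowly (edgeR adjusted p = 0.053). The 6 further subunits and partners of the regulatory particle, among them the deubiquitinase Usp14 and the ubiquitin receptor Adrm1, were all below 0. This list was likewise singled out after its values were seen. Its median was -0.15 (-0.21 to -0.096), beside -0.0093 over all genes tested, whose median size of change was 0.205. By edgeR 0 of 6 were called, and the lowest adjusted p was 0.29, for Usp14.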
